A study of Glycine max with 12 samples.

Results

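The genes described are 8 named genes of isoflavone and glyceollin synthesis in soybean (*Glycine max*), followed in leaves of different age under normal and high manganese (Mn). They were taken by gene ID, for their place in the pathway, with earlier results of these data known. The set holds the chalcone reductase gene Glyma.14G005700, the chalcone isomerase genes Glyma.20G241500 and Glyma.20G241700, the isoflavone synthase genes IFS1 (Glyma.07G202300.Wm82.a2.v1) and IFS2 (Glyma.13G173500.Wm82.a2.v1), and HIDH (Glyma.01G239600.Wm82.a2.v1), which encodes 2-hydroxyisoflavanone dehydratase. It also holds the prenyltransferase gene G4DT (Glyma.10G295300.Wm82.a2.v1) and the regulator gene NAC42-1 (Glyma.02G284300.Wm82.a2.v1). Of these 8, 7 were measured among the 39811 genes of the table, and Glyma.14G005700 was not analysed here. All IDs carry the suffix Wm82.a2.v1, left out below, and the first number in an ID is the chromosome, so the 7 genes lie on chromosomes 1, 2, 7, 10, 13 and 20. The names are those given with the IDs, since 0 of the 39811 IDs could be linked to the RefSeq gene table of assembly Glycine_max_v4.0. That table lists IFS2 as a synonym of its IFS1 gene on chromosome 7 and IFS1 as a synonym of its IFS2 gene on chromosome 13, so the pair is identified here by ID.

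Plants grew in nutrient solution and were moved at the fifth leaf stage to 5 µM or 100 µM Mn, given as MnSO4. Old and young leaves were sampled at each level, which makes 4 groups of 3 RNA sequencing libraries. All plants shared the rest of the solution, and the genotype, the time after transfer and the number of plants behind a library were not given in the sources used here. A randomized block layout with 3 replicates is described, but nothing ties a replicate number to a block or to separate plants, so p-values measure only the spread between these libraries, which may be technical.

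Isoflavones are the characteristic flavonoids of legumes. Chalcone synthase, acting with chalcone reductase, makes the 6'-deoxychalcone from which daidzein derives, and chalcone isomerase closes chalcones into flavanones. Isoflavone synthase, a cytochrome P450, moves the aryl ring of the flavanone, and the dehydratase HIDH then forms the isoflavone. Glyceollins are the pterocarpan phytoalexins of soybean, made from daidzein when tissue meets pathogens or chemical elicitors. G4DT prenylates the pterocarpan glycinol on the way to glyceollin I, and NAC42-1 is a NAC family transcription factor known as an activator of glyceollin genes.

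Levels are given as FPKM, the fragments of a gene divided by its length and by the fragment total of its library. The fragment totals behind the FPKM, recovered from the deposited values, were 17774122 to 21070730 per library. The listed genes held 99.99 to 100% of them, so fragments outside these genes are not counted. At this depth 1 fragment in a gene of 1 kb is worth 0.0475 to 0.0563 FPKM. The test took the 28267 genes that reached 1 FPKM in 3 or more of the 12 libraries and used log2(FPKM + 1), a scale that understates the change of low genes. All 7 measured genes passed, but G4DT reached 1 FPKM in 5 libraries, of which 2 lay outside young leaves at 100 µM, so it passed only through that group. The other 6 reached it in 10 to 12 libraries. Calls are limma tests with a Benjamini-Hochberg adjusted p below 0.05, the adjustment running over all 28267 genes. Replicate 3 of old leaves at 5 µM stood apart, being the highest of its group for 60.1% of the tested genes, and results that rest on it are given with and without it. The table pairs no IDs with functions, so the leaf label was not checked against marker genes.

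The measured pathway genes rose with high Mn in young leaves. NAC42-1, both chalcone isomerase genes, IFS1, IFS2 and HIDH were all called higher at 100 µM, as was G4DT. The ratios of mean FPKM ran from 4.06-fold for IFS1 to 22.9-fold for G4DT, and in each gene the lowest library at 100 µM lay above the highest at 5 µM. Without replicate 2 of young leaves at 5 µM, the high library there, the ratio became 42.1-fold for G4DT, 24.0-fold for IFS2 and 14.1-fold for NAC42-1. Across all genes 29.6% were called higher in this comparison and 50.6% had no overlap in that direction. The median log2 change was 2.83 over the 7 genes and 2.64 without G4DT, against 0.27 over all genes tested. Rescaling by median-of-ratios factors brought the median of all genes to -0.01 and that of the 7 genes to 2.58, with the 7 calls kept. After rescaling 24.8% of all genes were called in either direction, against 35.2% before. In whole leaves, more RNA per cell and more cells of a type that express a gene cannot be told apart.

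**Figure D1:**
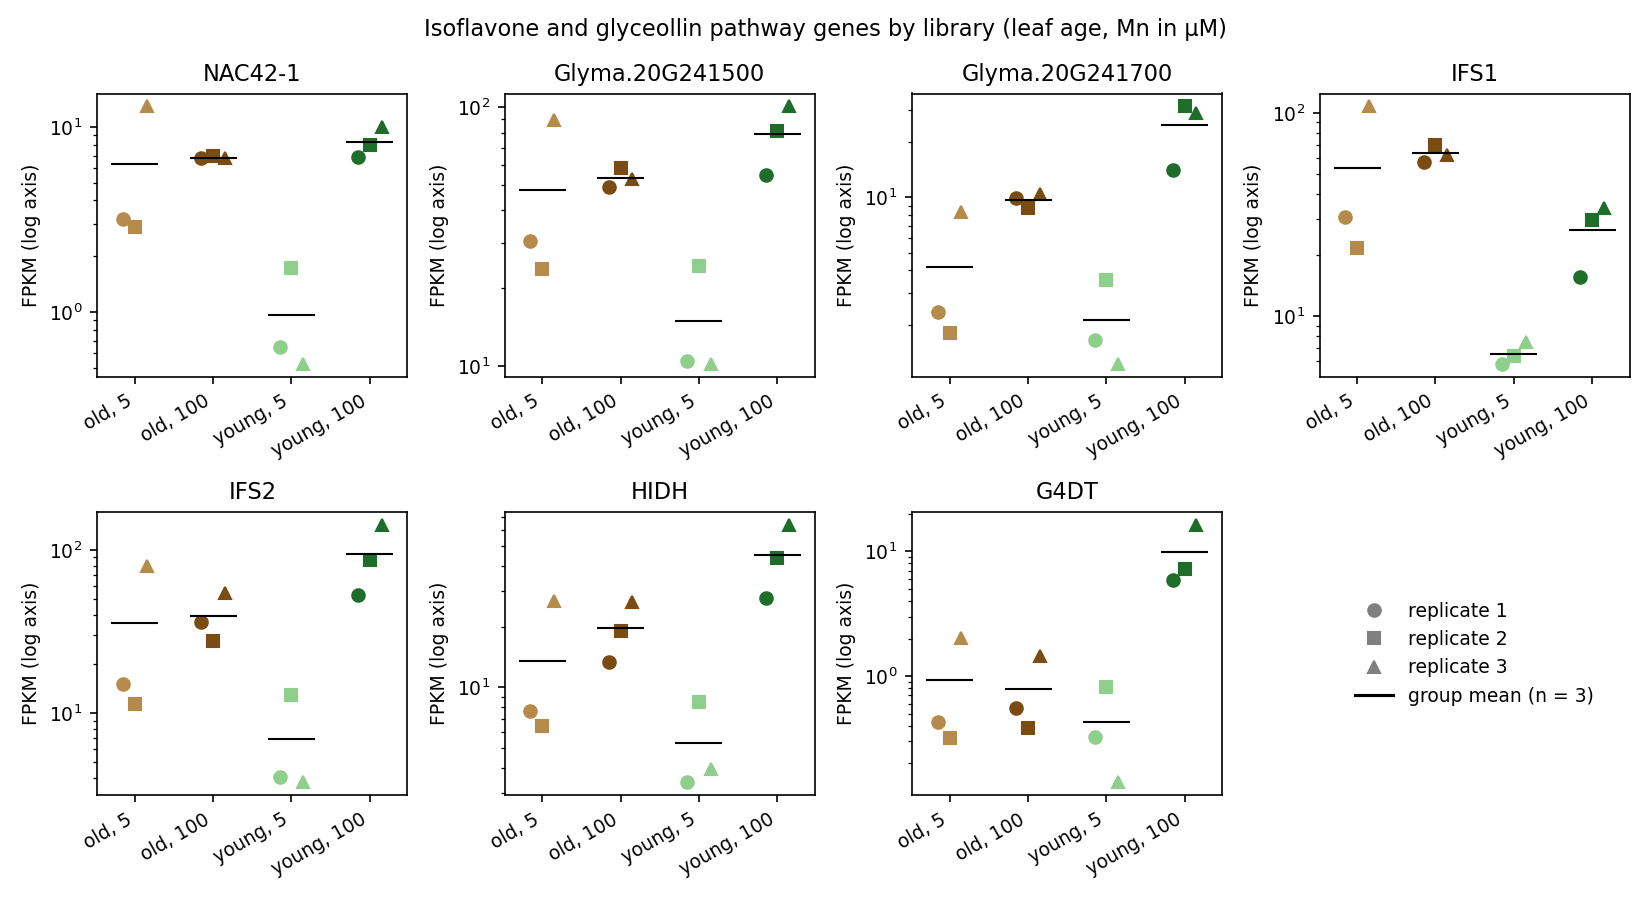
FPKM of each measured pathway gene (log axis) in the 12 libraries, by leaf age and Mn in µM. Symbols are replicates and lines are group means (n = 3). With all libraries, each gene had its lowest mean in young leaves at 5 µM, and each except IFS1 had its highest in young leaves at 100 µM. Without replicate 3 of old leaves at 5 µM, Glyma.20G241700 and G4DT were lowest in old leaves at 5 µM.

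The regulator gene NAC42-1 was scarce in young leaves at 5 µM, with FPKM of 0.65, 1.72 and 0.524 in replicates 1, 2 and 3, from 15, 46 and 14 fragments. At 100 µM the young-leaf values were 6.83, 8.02 and 10.03. The groups did not overlap, and replicate 2 was the high library at 5 µM. The rise was 8.59-fold in mean FPKM, or 2.28 on the log2 scale (SE 0.40, adjusted p = 0.0026). In old leaves NAC42-1 stood at 3.17, 2.88 and 12.9 at 5 µM and at 6.75, 6.93 and 6.79 at 100 µM. The high-Mn libraries of old leaves lay close together, between the low and the high library at 5 µM, and the log2 change of 0.36 did not pass (SE 0.40, adjusted p = 0.60).

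Of the chalcone isomerase genes, Glyma.20G241500 was the more abundant in every library. Its FPKM in young leaves was 10.5, 24.3 and 10.2 at 5 µM and 54.7, 80.9 and 101 at 100 µM, a 5.26-fold difference of means (log2 change 2.39, SE 0.45, adjusted p = 0.0033). In old leaves it was 30.5, 23.8 and 89.6 at 5 µM and 49.2, 58.4 and 53.0 at 100 µM. Here too replicate 3 at 5 µM exceeded the high-Mn libraries and the other replicates lay below them (log2 change 0.40, adjusted p = 0.60).

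Glyma.20G241700 was lower and changed more. In young leaves it went from 1.67, 3.54 and 1.23 to 14.2, 31.5 and 28.9 FPKM, 11.6-fold in the means (log2 change 3.03, SE 0.43, adjusted p = 9.0e-04). In old leaves the values were 2.37, 1.82 and 8.34 at 5 µM and 9.95, 8.79 and 10.4 at 100 µM. It was the 1 gene of the 7 whose old-leaf groups did not overlap, a separation that 20.3% of all genes showed in that direction. Its old-leaf log2 change of 1.26 (SE 0.43) missed the threshold with an adjusted p of 0.069.

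The isoflavone synthase genes encode the enzymes that commit flavanones to the isoflavone branch. IFS1 had FPKM of 5.83, 6.35 and 7.46 in young leaves at 5 µM and 15.6, 29.8 and 34.3 at 100 µM. The groups were apart, and the log2 change was 1.80 (SE 0.47, adjusted p = 0.014), the smallest of the 7. Without replicate 2 or replicate 3 of young leaves at 100 µM its adjusted p became 0.051 and 0.054. In old leaves IFS1 was at 30.8, 21.6 and 108 at 5 µM and at 57.6, 70.0 and 62.4 at 100 µM, so that its level in old leaves at 100 µM exceeded that of young leaves at 100 µM in every library.

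IFS2 had FPKM of 4.08, 13.03 and 3.77 in young leaves at 5 µM, and 53.0, 86.5 and 142 at 100 µM. The means differed 13.5-fold, and the log2 change of 3.65 (SE 0.66, adjusted p = 0.0028) was the largest of the 7 on this scale. Old leaves held 15.1, 11.3 and 80.0 at 5 µM and 36.0, 27.7 and 54.6 at 100 µM, with replicate 3 again the high library at 5 µM (log2 change 0.63, SE 0.66, adjusted p = 0.57). IFS1 and IFS2 are close copies, and how fragments that match both were treated is not given in the sources used here, so the split between them is uncertain.

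HIDH, the dehydratase that completes the isoflavone, went from 3.39, 8.51 and 3.94 FPKM to 27.9, 43.9 and 63.9 in young leaves. The means differed 8.56-fold and the groups did not overlap (log2 change 2.89, SE 0.49, adjusted p = 0.0021). Old leaves had 7.65, 6.42 and 26.7 at 5 µM and 13.4, 19.1 and 26.6 at 100 µM. The highest value of each old-leaf group was nearly equal and the change of 0.72 did not pass (SE 0.49, adjusted p = 0.35).

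G4DT, the glycinol prenyltransferase gene, was scarce in 9 of the 12 libraries. In young leaves at 5 µM it had 0.326, 0.818 and 0.141 FPKM from 10, 29 and 5 fragments, and the exact Poisson 95% interval of the lowest library ran from 0.0457 to 0.328, which covers counting error only. At 100 µM the young-leaf values were 5.93, 7.18 and 16.3, from 196, 252 and 574 fragments. The lowest of these was 7.25 times the highest at 5 µM. The log2 change was 2.83 (SE 0.39, adjusted p = 8.2e-04), with an adjusted p of 0.0015 when no filter on low values was applied. In old leaves G4DT had 0.431, 0.318 and 2.03 FPKM at 5 µM and 0.557, 0.384 and 1.44 at 100 µM, and replicate 3 was the highest of both groups (log2 change -0.04, SE 0.39, adjusted p = 0.96).

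In old leaves none of the 7 genes passed for Mn in limma, while 16.1% of all genes were called. At an unadjusted p under 0.05 there was 1 gene, Glyma.20G241700, against 31.0% of all genes. Voom on the recovered fragments also called 0 of the 7, where 16.1% of all genes were called. The median log2 change was 0.58 over the 7 genes and 0.09 over all genes. The count turned on a single library. Without replicate 3 of old leaves at 5 µM, 4 genes were called higher, where 26.7% of all genes were called in either direction. These were Glyma.20G241700 (log2 change 1.80, adjusted p = 0.0053), IFS1 (1.26, adjusted p = 0.010), NAC42-1 (0.96, adjusted p = 0.013) and HIDH (1.32, adjusted p = 0.035). The intervals with all libraries are wide, from -0.45 to 1.61 for IFS1 and from -0.82 to 2.08 for IFS2, so a rise of 2-fold in old leaves lies within them.

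**Figure D2:**
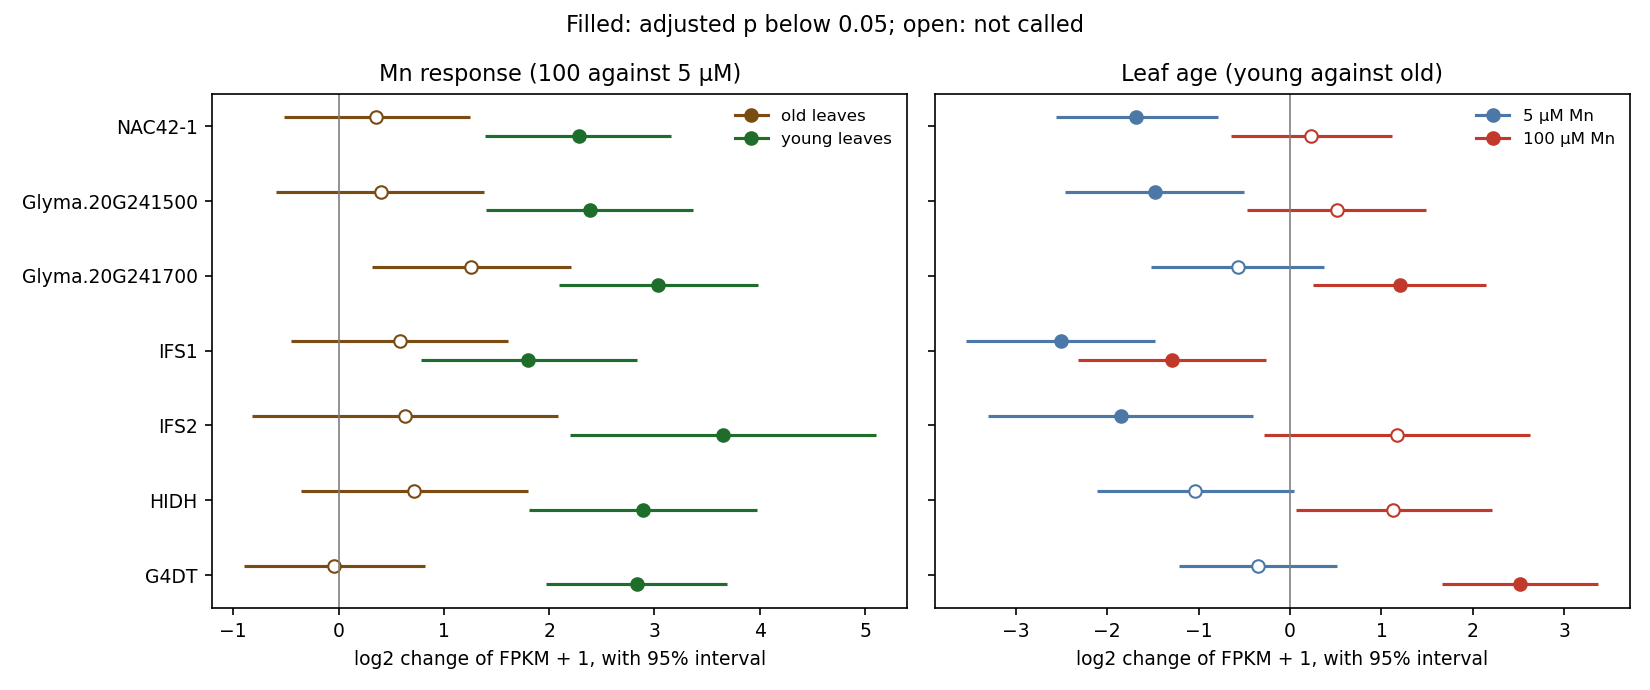
Log2 change of FPKM + 1 with its 95% interval for each gene, for Mn in old and young leaves (left) and for leaf age at 5 and 100 µM Mn (right). Filled points had an adjusted p below 0.05. All 7 young-leaf Mn changes lie above 1.5 with intervals above 0, and the old-leaf changes lie between -0.04 and 1.26.

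Whether the Mn response differed with leaf age was tested as the difference of the log2 changes, young minus old. It was positive for all 7 genes, from 1.22 for IFS1 to 3.02 for IFS2, with a median of 1.99 against 0.15 over all genes. Only G4DT passed, with a difference of 2.87 (SE 0.55, adjusted p = 0.022), where 3.75% of all genes were called in that direction. The adjusted p was 0.075 for NAC42-1, 0.081 for IFS2, 0.088 for Glyma.20G241500, 0.090 for HIDH, 0.11 for Glyma.20G241700 and 0.27 for IFS1. At an unadjusted p under 0.05 there were 6 genes, all higher, as were 19.1% of all genes. The G4DT call was lost with voom on the recovered fragments (difference 4.56, adjusted p = 0.081), and in 4 of the 12 fits that left out 1 library. Those were the fits without replicate 2 of old leaves at 100 µM (adjusted p = 0.058), replicate 1 or 3 of young leaves at 5 µM (0.057 and 0.068) and replicate 3 of young leaves at 100 µM (0.062). Without replicate 2 of old leaves at 5 µM 6 genes were called, while the share of all genes called in either direction went from 4.67% to 11.4%. Without replicate 3 of that group the median was 1.42, against 0.08 over all genes. In that fit 2 genes were called, G4DT and NAC42-1 (difference 1.32, adjusted p = 0.039), and 4.88% of all genes. G4DT entered the test only through young leaves at 100 µM, and with no filter on low values its adjusted p was 0.030.

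The leaf age comparisons use the same libraries as the Mn comparisons and are no separate support for them. At 5 µM young leaves had less of 4 transcripts. IFS1 was 8.19-fold lower in young than in old leaves (log2 difference -2.51, SE 0.47, adjusted p = 0.0013) and NAC42-1 6.53-fold lower (-1.68, SE 0.40, adjusted p = 0.0060), both with no overlap between groups, as for 32.7% of all genes in that direction. IFS2 (-1.85, SE 0.66, adjusted p = 0.039) and Glyma.20G241500 (-1.48, SE 0.45, adjusted p = 0.019) were also called lower, though replicate 2 of young leaves overlapped the old-leaf values. The share of all genes called lower was 28.0%. Glyma.20G241700, HIDH and G4DT had differences of -0.57, -1.04 and -0.35 that did not pass. The sizes rest on replicate 3 of old leaves at 5 µM, without which IFS1 was 4.0-fold and NAC42-1 3.13-fold lower in young leaves, IFS2 1.89-fold and Glyma.20G241500 1.81-fold. Without replicate 2 of young leaves at 5 µM the fold became 10.7 for NAC42-1 and 9.04 for IFS2. Without replicate 3 of old leaves at 5 µM the calls were 2, IFS1 and NAC42-1, and IFS2 (adjusted p = 0.13) and Glyma.20G241500 (0.053) were lost. The same pair was lost without replicate 1 or replicate 3 of young leaves at 5 µM. In these 3 fits 43.2, 35.5 and 36.9% of all genes were called in either direction, against 45.5% with all libraries. Over 24 alternatives the call of IFS2 was lost in 10, with adjusted p up to 0.13, and that of Glyma.20G241500 in 4, while those of IFS1 and NAC42-1 held in all.

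At 100 µM the order of the leaf ages depended on the gene. G4DT was 12.4-fold higher in young than in old leaves, a difference of 2.52 on the log2 scale (SE 0.39, adjusted p = 3.9e-04). It passed the filter only through the young-leaf group of this comparison, and with no filter its adjusted p was 7.4e-04. Without replicate 3 of old leaves at 100 µM the fold became 20.9, and without replicate 3 of young leaves at 100 µM it became 8.26. Glyma.20G241700 was 2.56-fold higher (1.20, SE 0.43, adjusted p = 0.044). IFS1 was 2.38-fold lower in young leaves (-1.29, SE 0.47, adjusted p = 0.046). Across all genes 22.8% were called higher and 17.8% lower. HIDH was higher in every young-leaf library than in any old-leaf library, at 27.9 FPKM or more against 26.6 or less, but its difference of 1.13 had an adjusted p of 0.087 and was called in 5 of 24 alternatives, among them the fit without replicate 3 of old leaves at 5 µM (adjusted p = 0.023). With G4DT and Glyma.20G241700 that made 3 genes higher without overlap between groups, against 33.0% of all genes, and IFS1 was lower without overlap, against 27.7%. IFS2, Glyma.20G241500 and NAC42-1 had differences of 1.17, 0.51 and 0.23 that did not pass. The calls of IFS1 and Glyma.20G241700 were lost in 11 and 10 of 24 alternatives, with adjusted p up to 0.17 and 0.14, whereas that of G4DT held in all 23 that tested it.

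Put in order of mean FPKM over all 12 libraries, all 7 genes were lowest in young leaves at 5 µM, and 6 were highest in young leaves at 100 µM. IFS1 was the exception, with means of 6.55 ± 0.835 in young leaves at 5 µM, 26.6 ± 9.74 in young leaves at 100 µM, 53.6 ± 47.7 in old leaves at 5 µM and 63.3 ± 6.26 in old leaves at 100 µM (SD, n = 3). IFS2 ran from 6.96 ± 5.26 in young leaves at 5 µM through 35.5 ± 38.6 and 39.4 ± 13.8 in old leaves at 5 and 100 µM to 93.9 ± 45.1 in young leaves at 100 µM (SD, n = 3). With all 12 libraries the old-leaf groups are neighbours in the order of every gene, and in none did they differ by a call. At the bottom of the order, young leaves at 5 µM overlapped with their neighbour in the order for IFS2, both isomerase genes, HIDH and G4DT. The order rests in part on replicate 3 of old leaves at 5 µM. Without it, Glyma.20G241700 and G4DT were lowest in old leaves at 5 µM, with young over old ratios of 1.03 and 1.14. The old-leaf groups were then no longer neighbours for these genes or for IFS1. In that fit 4 genes were called higher with Mn in old leaves, where 26.7% of all genes were called in either direction.

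The share of IFS2 among the isoflavone synthase transcripts was highest in young leaves at high Mn. IFS2 made up 77.2, 74.4 and 80.6% of the summed FPKM of the pair in young leaves at 100 µM, and 41.2, 67.2 and 33.5% at 5 µM. In old leaves its share was 32.9, 34.2 and 42.5% at 5 µM and 38.4, 28.3 and 46.7% at 100 µM. Young leaves at 100 µM thus lay above the other 9 libraries, and replicate 2 of young leaves at 5 µM was the next highest. The IFS2 to IFS1 ratio was 3.83-fold higher at 100 than at 5 µM in young leaves and 1.05-fold higher in old leaves. The exact two-sided permutation p was 0.1 in young leaves, the smallest that 3 against 3 libraries allow, and 1 in old leaves (n = 3). Without replicate 2 of young leaves at 5 µM the young-leaf Mn difference became 5.80-fold. At 100 µM the ratio was 5.74-fold higher in young than in old leaves (exact permutation p = 0.1, n = 3), and at 5 µM 1.57-fold higher (exact permutation p = 0.6, n = 3), or 1.04-fold without that library.

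The balance of the chalcone isomerase genes was also compared between Mn levels in both leaf ages. Glyma.20G241700 held 7.22, 7.09 and 8.51% of the summed FPKM of both genes in old leaves at 5 µM and 16.8, 13.1 and 16.5% at 100 µM. In young leaves it held 13.7, 12.7 and 10.8% at 5 µM and 20.6, 28.0 and 22.3% at 100 µM. The groups did not overlap in either leaf age, and replicate 3 of old leaves at 5 µM, high for each gene alone, fell with its group. Its ratio to Glyma.20G241500 was 2.21-fold higher at 100 µM in old leaves and 2.18-fold higher in young leaves, and it was 1.72-fold and 1.69-fold higher in young than in old leaves at 5 and 100 µM. Each of these 4 comparisons had an exact permutation p of 0.1 (n = 3), the smallest possible. Over the 8 comparisons of both ratios the Benjamini-Hochberg value of those at the smallest p was 0.13. Ratios within a library do not depend on the scaling between libraries.

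**Figure D3:**
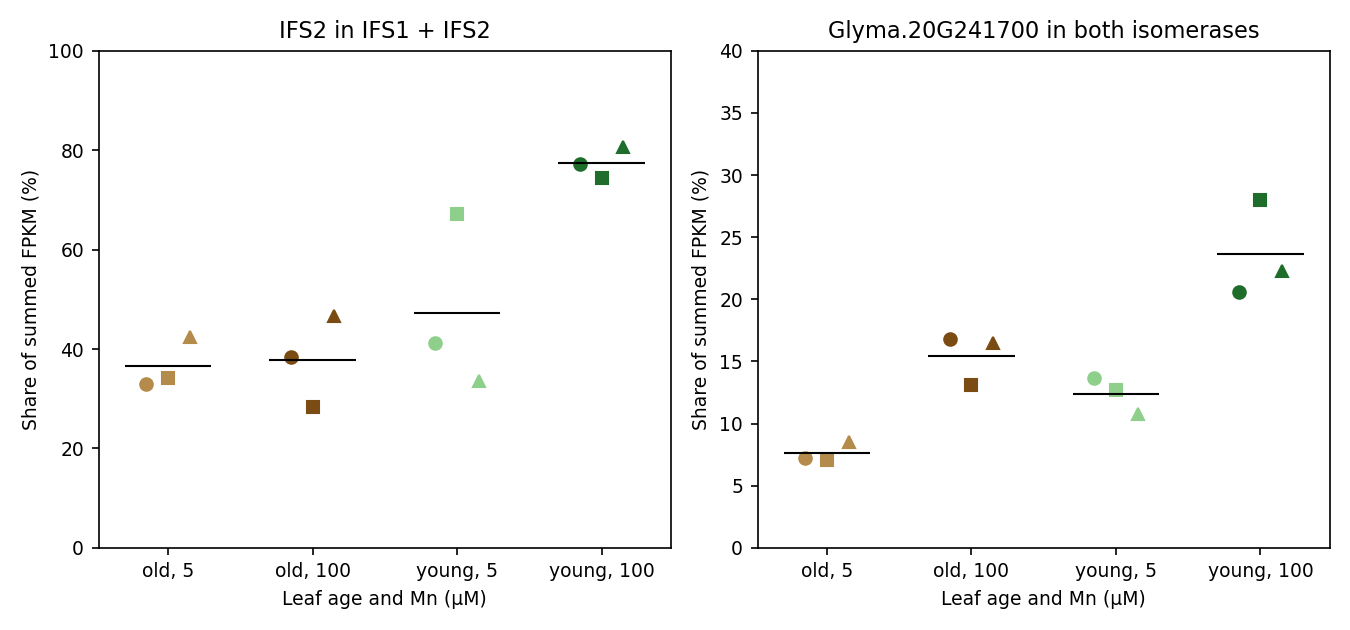
Share of IFS2 in the summed FPKM of IFS1 and IFS2 (left, axis to 100%) and of Glyma.20G241700 in that of both isomerase genes (right, axis to 40%), by leaf age and Mn in µM. Circles, squares and triangles are replicates 1, 2 and 3, and lines are means (n = 3). IFS2 exceeded 70% in young leaves at 100 µM alone, and the Glyma.20G241700 share was higher at 100 µM in both leaf ages without overlap.

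In 3 of the 4 groups at least 6 of the 7 genes had their highest value in the same replicate. Replicate 3 of old leaves at 5 µM was the highest of its group for 7 of 7 genes, where 60.1% of all genes had their highest value, and replicate 2 was the lowest for 7 of 7, against 51.5%. In young leaves at 5 µM replicate 2 was the highest for 6 of 7 (45.0% of all genes), IFS1 being the exception. In young leaves at 100 µM replicate 1 was the lowest for 7 of 7 (37.7%) and replicate 3 the highest for 6 of 7 (32.0%). In old leaves at 100 µM the genes had the highest value in replicate 2 for 3 and in replicate 3 for 4, and the lowest in replicate 1 for 4 and in replicate 2 for 3. Over the 12 libraries the 21 pairs of genes correlated at r = 0.19 to 0.98 with a median of 0.85, and deviations from the group means at 0.70 to 0.96 with a median of 0.90. Over all pairs of tested genes the medians were 0.15 and 0.12. The lowest pair was IFS1 with G4DT, at 0.19 over all libraries and 0.70 for the deviations. These are descriptions, since genes of 1 library share its depth and its source leaves.

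**Figure D4:**
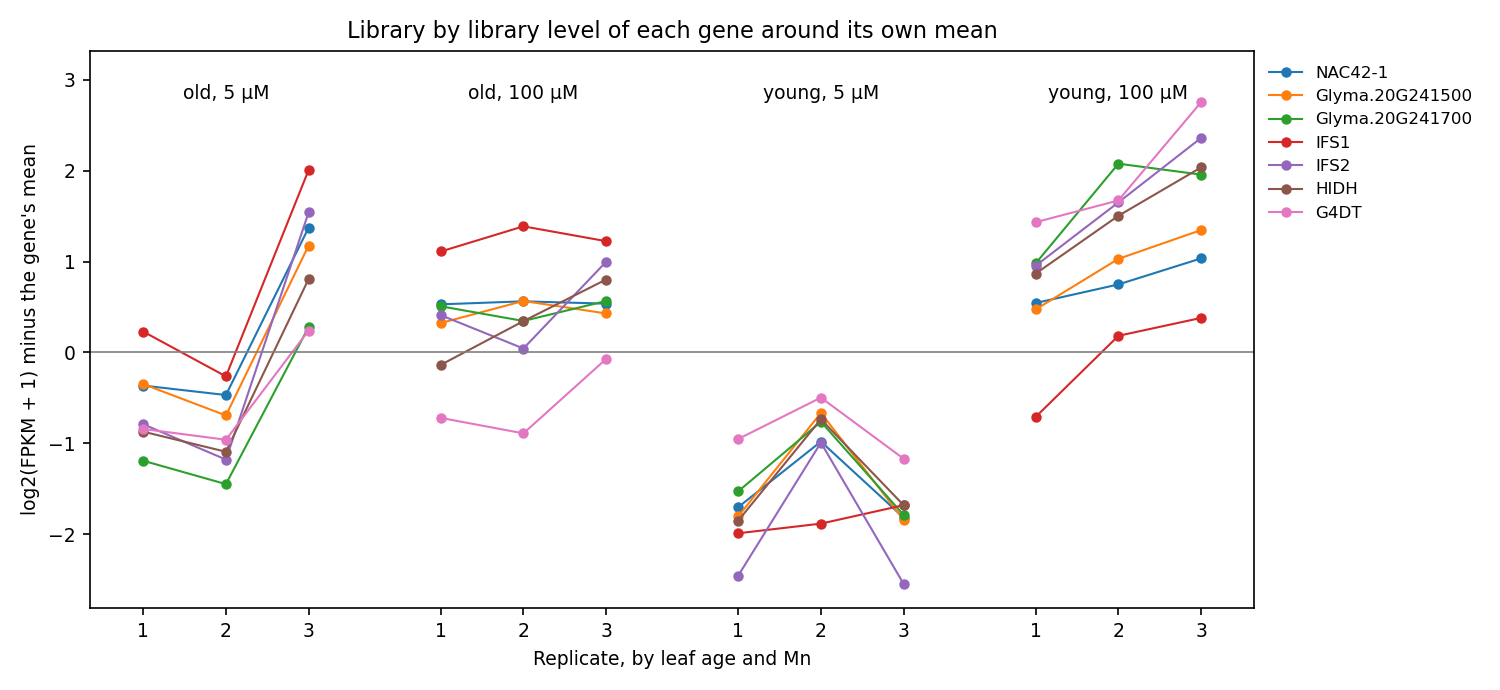
log2(FPKM + 1) of each gene minus its own mean over the 12 libraries, by group and replicate. Lines join the values of 1 gene within a group and imply no order of replicates. Replicate 3 of old leaves at 5 µM lies above its group for all 7 genes, and replicate 2 of young leaves at 5 µM for all but IFS1.

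Likeness of pattern was measured by Pearson correlation of log2(FPKM + 1) over the 12 libraries against the other 28266 tested genes. For IFS2, Glyma.20G241500 ranked 6 and HIDH 7, both at r = 0.98, NAC42-1 ranked 76 (0.95) and Glyma.20G241700 235 (0.93), while G4DT ranked 2661 (0.81) and IFS1 5828 (0.70). For NAC42-1, Glyma.20G241500 ranked 12 (r = 0.98) and IFS2 248 (0.95). For NAC42-1, IFS1 (rank 2527, r = 0.85) and Glyma.20G241700 (2839, 0.84) were about equally near, and G4DT was farthest (9332, 0.63). For IFS1 the nearest of the 7 was NAC42-1 at rank 3187 (r = 0.85), and the highest correlation of G4DT with any of the 7 was close to that (0.86, with HIDH).

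The genes most like IFS2 were Glyma.01G134600 (r = 0.991), Glyma.19G030500 (0.983) and Glyma.03G044900 (0.982). The first had mean FPKM of 7.15 and 8.09 in old leaves at 5 and 100 µM and 0.759 and 16.1 in young leaves. Most like NAC42-1 were Glyma.20G080200 (0.992), Glyma.15G158200 (0.990) and Glyma.08G288700 (0.988). Most like IFS1 were Glyma.07G021600 (0.989), Glyma.13G193700 (0.988) and Glyma.17G145600 (0.987). Glyma.07G021600 had means of 18.8 and 24.7 in old leaves and 2.37 and 10.8 in young leaves, the same order of groups as IFS1. The table gives no function for these IDs.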

How the data were processed

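RNA from 12 soybean leaf libraries was sequenced. The labels' extraction protocol mentions nodules, but every sample carries a leaf label, which was followed. A single table of FPKM values for 39811 genes was deposited by the authors. The submitters' processing notes name HISAT2 2.1.0, DESeq2 1.6.3 and Bowtie2 2.2.3 without saying what each did. The counting rule, the build and the handling of fragments that match several genes were not given in the sources used here, so values of close copies are uncertain. Fragment numbers and library totals were solved from the deposited FPKM as whole numbers (tolerance 0.02), which succeeded for 39810 genes. Genes with at least 1 FPKM in at least 3 libraries (28267) were fitted as log2(FPKM + 1) with 4 group means in limma 3.58.1 (R 4.3.3, eBayes with trend). Tests were two-sided with Benjamini-Hochberg adjustment over all tested genes, called below 0.05. The fit and the recovery were tried on simulated data. For the fit the simulated spread was the same in every group, with no library that stood apart. That simulation therefore checks the code and not the calls made here. Ratios between 2 genes in a library were compared with exact permutation tests (scipy 1.17.1). Alternatives were other pseudocounts, filters, scalings, variance and weight models, the 6 compared libraries alone, the replicate number as a block, voom on recovered fragments, and leaving out each library. The 8 genes were taken by ID, and the 3 genes most correlated with IFS1, IFS2 and NAC42-1 were named. The genes and tests were chosen with earlier results of these data known. The ratios were added later, after values had been seen. Lists of other pathway genes and tissue markers, defined by RefSeq descriptions, could not be linked to the IDs and were not used, and no sequences were at hand.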

Additional observations from a re-analysis of the deposited data

Results flagged for a closer look

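The Mn response of G4DT differed between leaf ages by the test of the difference itself, with a log2 difference (young minus old) of 2.87 (SE 0.55, adjusted p = 0.022 in limma). It was the only one of the 7 genes to pass. G4DT reached 1 FPKM in only 2 libraries outside young leaves at 100 µM, so it entered the test through the group where it is high, and with no filter on low values its adjusted p was 0.030. The young-leaf libraries at 100 µM had 5.93 to 16.3 FPKM, and the other 9 libraries 0.141 to 2.03 FPKM from 5 to 61 fragments. Over 22 alternatives the adjusted p ran from 0.0083 to 0.081, and 17 of them kept the call.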

How the results depend on the processing

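The 7 young-leaf Mn calls stayed at 6 or 7 in all 24 alternatives, with G4DT untested at a mean FPKM of at least 5 and IFS1 lost in 2 fits that left out a library. The share of all genes called in either direction ran from 18.4 to 52.5% over these alternatives, against 35.2%. For Mn in old leaves the count of 0 became 4 with array weights by library, where the share of all genes called was 26.2% against 16.1%. Leaving out 1 library gave 0 to 4, with 7.54 to 26.7% of all genes called. The old-leaf change of G4DT, -0.04, turned to 0.02 at a pseudocount of 0.1, 0.19 with array weights by library and 0.10 with voom, and ran from -0.29 to 0.34 without 1 library. For the difference between Mn responses the count of 1 became 0 at a mean FPKM of at least 5 (which leaves out G4DT), 0 with voom, 2 after quantile normalization, 2 with array weights by group and 4 with array weights by library. In these settings, in the order given, 5.06, 2.91, 7.21, 5.15 and 11.5% of all genes were called, against 4.67%. Without 1 library it ran from 0 to 6, with 0.275 to 11.4% of all genes called. For leaf age at 5 µM the count of 4 became 2 with the 6 compared libraries alone, where 33.1% of all genes were called, against 45.5%. It became 3 in 5 other settings, each without the IFS2 call, with 35.2 to 49.9% of all genes called. Without 1 library it was 2 to 5, with 35.5 to 47.6% of all genes called, and the G4DT difference ran from -0.57 to 0.03. For leaf age at 100 µM the count of 3 became 1 without a filter and 1 with the stricter filter (34.5 and 38.9% of all genes, against 40.6%). It became 5 for the compared libraries alone and 5 with array weights by library (49.5 and 53.5%). A pseudocount of 0.1 gave 2 (39.2%), and array weights by group gave 4 (52.4%). Without 1 library it was 1 to 4, with 31.0 to 49.6% of all genes called. The causes were not tested. Libraries with the same replicate number were not alike throughout: of 18 same-numbered pairs, 5 had deviations correlated above 0.1 (range -0.47 to 0.26). Deviations from means of 3 libraries cannot decide whether replicate numbers mark blocks. With the replicate block the counts stayed at 0, 7, 1, 4 and 3, though at 100 µM HIDH was called (adjusted p = 0.047) and Glyma.20G241700 was not (0.051). The shares of all genes called with the block were 13.1, 30.2, 2.71, 42.3 and 37.8%, against 16.1, 35.2, 4.67, 45.5 and 40.6% without it. Folds of mean FPKM and ratios between genes were tried only without 1 library each, chosen after seeing the data, and the printed ones that moved over 1.5 times are given with the comparisons they touch. Depth limits G4DT and NAC42-1 most, with as few as 5 and 14 fragments in a library.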

Other observations

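Glyma.20G241600, the ID between the chalcone isomerase genes, is given for its position alone. The RefSeq table of Glycine_max_v4.0 lists the symbols CHI1A, CHI1B1 and CHI2-A next to each other on chromosome 20, but it could not be linked to the IDs, so no function is given to this one. Its FPKM in young leaves was 1.64, 4.96 and 1.38 at 5 µM and 19.4, 23.8 and 19.3 at 100 µM, a rise of 2.70 on the log2 scale (SE 0.45, adjusted p = 0.0019). In old leaves it was 9.21, 8.02 and 32.3 at 5 µM and 18.9, 19.4 and 16.2 at 100 µM (log2 change 0.39, SE 0.45, adjusted p = 0.61), again with replicate 3 as the high library at 5 µM. At 5 µM it was lower in young than in old leaves (log2 difference -2.12, SE 0.45, adjusted p = 0.0029). The difference between its Mn responses, 2.31 (SE 0.63), did not pass (adjusted p = 0.060).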
